A study of Mus musculus with 2 samples.

Results

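Complement genes of the classical and alternative pathways, 10 in all, were followed in whole mouse kidney with and without cystic disease. They were C1qa, C1qb, C1qc, C1ra, C1s1, C2, Cfb, Cfi, C3ar1 and C5ar1, named as a list, and every probe set annotated with 1 of them was taken: 18 probe sets of 45037 on the array, 17 naming a member alone and 1 naming C1ra together with its copy C1rb. All 10 were among the 18193 genes with a probe set of their own.

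The kidneys came from a mouse model of nephronophthisis type 2, a recessive cystic kidney disease. The cystic group was homozygous for the inv mutation of Invs, the gene of the cilium protein inversin, and carried the transgene inv-deltaC::GFP, which encodes inversin without its C-terminus. The control group was +/+ at Invs and carried the same transgene, so both groups share it. Both were 4 weeks old by the series design, which also speaks of 2 kidneys, and neither the number of mice behind each array nor the promoter of the transgene is given in the sources used here. Each group was 1 Affymetrix array of total RNA, so no test was possible, no value has a replicate error, and the number of arrays limits the precision. Values are linear MAS5 signals as the authors deposited them.

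The complement system is a cascade of blood and tissue proteins that marks microbes and damaged cells. In the classical pathway the recognition molecule C1q, built from A, B and C chains, binds its target and switches on the attached proteases C1r and C1s, which cut C4 and C2 into a convertase. In the alternative pathway factor B supplies the protease of the convertase, factor I cuts and inactivates the bound C3b and C4b fragments, and the small fragments C3a and C5a act through the receptors C3ar1 and C5ar1. The liver makes most circulating complement, but C1q comes mainly from macrophages and dendritic cells, and kidney cells can make several components themselves.

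A signal was read as measured where it reached the floor of its array, the median signal over all probe sets, which was 55.4 on the control and 61.9 on the cystic array. Where only 1 array reached it, the lower signal was set to that floor, which turns the ratio into a bound. The 2% trimmed mean signals were 178 and 181. Kidney markers were high on both arrays: Umod, the main protein of normal urine, went from 8713 to 8160, and all 10 kidney markers with a probe set of their own reached it on each array. The brightest Invs probe set went from 118 to 15.9. The cystic array is labelled female and the control has no sex label, yet the brightest probe set of Xist, the X-inactivation RNA of female cells, had 387 in the control and 57.4, under the floor, in the cystic array, and the Y-linked gene Uty had 206 and 198. The sex label of the cystic array therefore goes against these signals. The control array had both Xist and Uty above the floor, the cystic array Uty but not Xist. If the sexes of the mice behind the arrays differed, that difference cannot be told apart from the cystic state in any ratio below. With 1 array a group, nothing can be given without that array.

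In the cystic kidney 7 of the 10 genes were at least 2-fold higher, none was 2-fold lower, and their median log2 ratio, cystic minus control, was 1.25. Over all 12015 measured genes 7.06% were at least 2-fold higher and 3.78% at least 2-fold lower, with a median log2 ratio of 0.09. The 7 were C1qc, C1qa, Cfi, C1s1, C3ar1, C1ra and C1qb, in that order. C2 and Cfb, the proteases of the C3 convertases, were not past 2-fold and lay below 0, and C5ar1 was a bound under 2-fold. At a limit of 3-fold, 4 of the 10 were higher (C1qc, C1qa, Cfi and C1s1), beside 2.28% of all genes higher and 0.965% lower. At 1.5-fold, 8 were higher, C5ar1 being added, beside 16.4% higher and 10.8% lower. Counted by probe set, 11 of the 18 were at least 2-fold higher and none lower, beside 6% and 3.21% of all 24332 measured probe sets. Of the 18, 5 reached the floor on the cystic array only, so their ratios are bounds. Probe sets of the same gene are technical repeats on the same RNA and add no independent count. Centring each array on its median signal moved the median of all genes to -0.07 and the share of higher genes among all past 2-fold from 65.1% to 47.5%, and left 5 of the 10 genes past 2-fold higher and none lower, beside 5.07% of all genes higher and 5.59% lower in that setting.

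**Figure D1:**
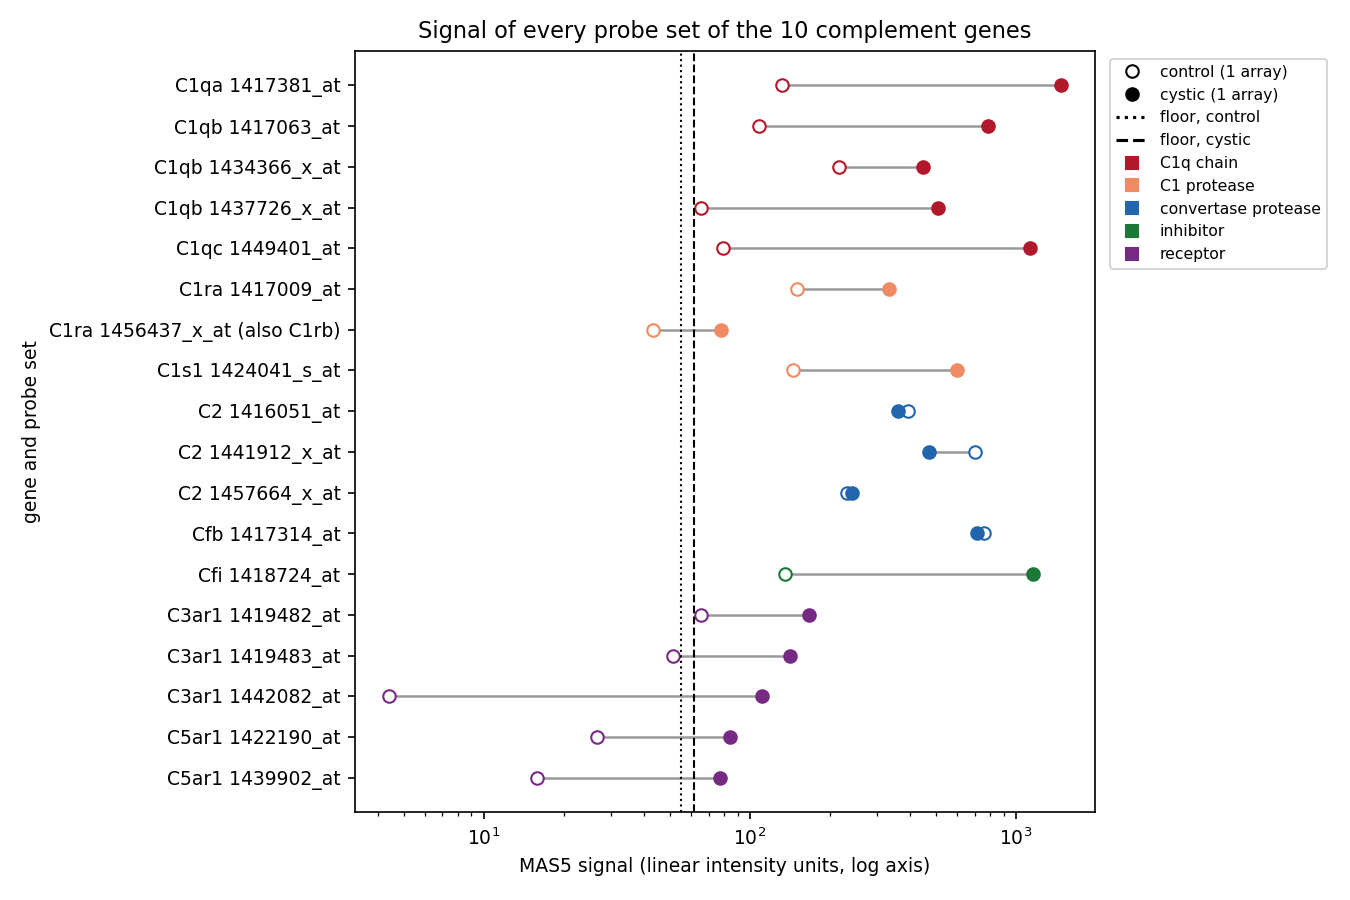
MAS5 signal (linear units on a log axis) of each of the 18 probe sets in the control (open) and the cystic kidney (filled), 1 array each, coloured by role, with the floor of each array as a vertical line. The C1q chains and Cfi run far to the right from control to cystic, C2 and Cfb barely move, and the C5ar1 probe sets start under the control floor.

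C1q chains held the 2 highest ratios of the 10 genes. C1qc, the C chain, rose 14.3-fold, from a control signal of 79.4 to a cystic one of 1133. C1qa, the A chain, went from 132 to 1478, or 11.2-fold. Ranked from the highest ratio among the 10668 genes that reached the floor on each array, C1qc was number 4 and C1qa number 9, and the 1347 genes read as bounds have no exact place in that order. The C1qc and C1qa log2 ratios of 3.83 and 3.48 differed by 0.35. For scale, log2 ratios from several probe sets of 1 gene scattered with an SD of 0.29, pooled over 4694 genes, a technical spread within the same RNA.

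The B chain gene C1qb was read by 3 probe sets, which disagreed in size. The brightest, of the _x_at kind, had a control signal of 216 and a cystic one of 449, a log2 ratio of 1.06. The other two, of the _at and _x_at kinds, went from 109 to 785 and from 65.5 to 511, with log2 ratios of 2.85 and 2.96. All 3 were higher in the cystic kidney and past 2-fold, the brightest only just (2.08-fold). The ratio of the brightest lay 2.43 below that of C1qa on the log2 scale. It fell under 2-fold with median centring (0.90), quantile normalization (0.95) or loess (0.97), and with no floor and an added offset of 50 (0.91). The suffix _x_at marks probes that may also bind other transcripts, and which transcripts these probe sets read was not examined here.

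The 3 C1q genes lie next to each other in the order C1qb, C1qc, C1qa, with no other protein-coding gene between them in the RefSeq table of assembly GRCm38.p6. Epha8, the protein-coding gene that follows C1qa, was under the floor on both arrays (19.5 and 9.4). RefSeq promoter windows were found for 6 of the 10 genes: C1qb, C1qc, C1ra, C1s1 (2 windows), C3ar1 and C5ar1. The 250 bases before the start of C1qb and C1qc are shown because these neighbours rose together. Both contain GAGGAA, the core bound by PU.1 (the macrophage transcription factor encoded by Spi1), searched on both strands, and the capitals mark it. In C1qb it stands 30 to 25 bases before the start, and in C1qc the reverse complement TTCCTC stands 193 to 188 bases before it.
C1qb, GRCm38.p6 chr4:136886201-136886450, minus strand: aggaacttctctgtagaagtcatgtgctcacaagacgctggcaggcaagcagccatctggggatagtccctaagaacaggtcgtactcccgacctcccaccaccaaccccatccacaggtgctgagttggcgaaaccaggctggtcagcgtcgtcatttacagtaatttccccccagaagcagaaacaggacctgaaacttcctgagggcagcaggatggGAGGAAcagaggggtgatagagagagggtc
C1qc, GRCm38.p6 chr4:136892915-136893164, minus strand: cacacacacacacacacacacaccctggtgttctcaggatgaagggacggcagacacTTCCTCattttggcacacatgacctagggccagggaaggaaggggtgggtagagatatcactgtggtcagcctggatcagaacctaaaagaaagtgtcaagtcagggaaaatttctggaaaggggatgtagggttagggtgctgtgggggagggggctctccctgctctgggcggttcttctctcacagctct
The core is short and common: 23.3% of the 32851 windows of this length in the table hold it on either strand, so its presence is a description only. The signal of Spi1 itself went from 63.2 to 149, a log2 ratio of 1.24.

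The same windows were searched on both strands for the STAT palindrome TTCNNNGAA (in 7.02% of all windows), an interferon response motif (2.98%), a C/EBP-type motif TTGCNNAA (9.56%), a kappaB-type motif (1.41%) and the TATA box TATAAA (12.4%). None of these was found in the C1qb or C1qc window. No 2 matches in the windows of the 10 genes overlapped.

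The C1 proteases were also higher. C1s1, the protease that cuts C4 and C2, went from 145 to 602, 4.15-fold at its single probe set, of the _s_at kind, which several transcripts can share. C1ra, which activates C1s, went from 150 to 333, 2.22-fold. The log2 ratio of C1s1 (2.05) lay 0.90 above that of C1ra (1.15). The C1ra value fell under 2-fold with median centring (0.99) and with no floor and an added offset of 50 (0.94). The probe set that names both C1ra and C1rb had 43.2 and 77.8, at least 1.40-fold higher. The mouse carries near-identical copies of both genes, C1rb and C1s2, so signals may come from either copy.

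C1ra and C1s1 are neighbours in the same RefSeq order, as the C1q genes are. Their upstream windows are shown because the pair rose together. Capitals mark the C/EBP-type match of C1s1, the reverse complement of TTGCNNAA, 242 to 235 bases before the start. The C1ra window held none of the 6 motifs, nor did the other C1s1 window, which overlaps the one shown.
C1ra, GRCm38.p6 chr6:124512371-124512620, plus strand: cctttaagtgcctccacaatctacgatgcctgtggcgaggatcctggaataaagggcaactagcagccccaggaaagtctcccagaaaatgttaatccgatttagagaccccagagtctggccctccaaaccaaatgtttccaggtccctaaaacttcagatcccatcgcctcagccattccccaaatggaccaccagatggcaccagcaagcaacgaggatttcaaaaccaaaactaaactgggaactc
C1s1, GRCm38.p6 chr6:124542360-124542609, minus strand: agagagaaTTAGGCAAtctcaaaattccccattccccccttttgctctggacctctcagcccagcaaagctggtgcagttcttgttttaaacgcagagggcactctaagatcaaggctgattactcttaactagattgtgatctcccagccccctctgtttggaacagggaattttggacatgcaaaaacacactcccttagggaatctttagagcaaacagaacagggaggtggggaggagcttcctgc

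The convertase proteases did not follow the C1 genes. C2, the classical pathway protease cut by C1s, went from 706 to 471 at its brightest probe set, of the _x_at kind, a log2 ratio of -0.58. Its other probe sets had 394 and 362 (-0.12) and 233 and 243 (0.06). None of the 3 was past 2-fold, and they did not share a sign. Cfb, the protease of the alternative pathway convertase, had 756 and 716, a log2 ratio of -0.08. Both genes were far brighter than the floor. The log2 ratio of C2 lay 1.73 below that of C1ra. C2 and Cfb are neighbours too, and the protein-coding genes on either side, Nelfe and Zbtb12, had log2 ratios of -0.24 and 0.29.

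Cfi, the protease that inactivates C3b and C4b and so limits the cascade, went from 135 in the control to 1158 in the cystic kidney, 8.56-fold higher. It was number 14 among the genes that reached the floor on each array, and its log2 ratio of 3.10 lay 1.05 above that of C1s1. It had a single probe set. The genes on either side, Gar1 and Pla2g12a, had log2 ratios of -0.07 and -0.62.

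**Figure D2:**
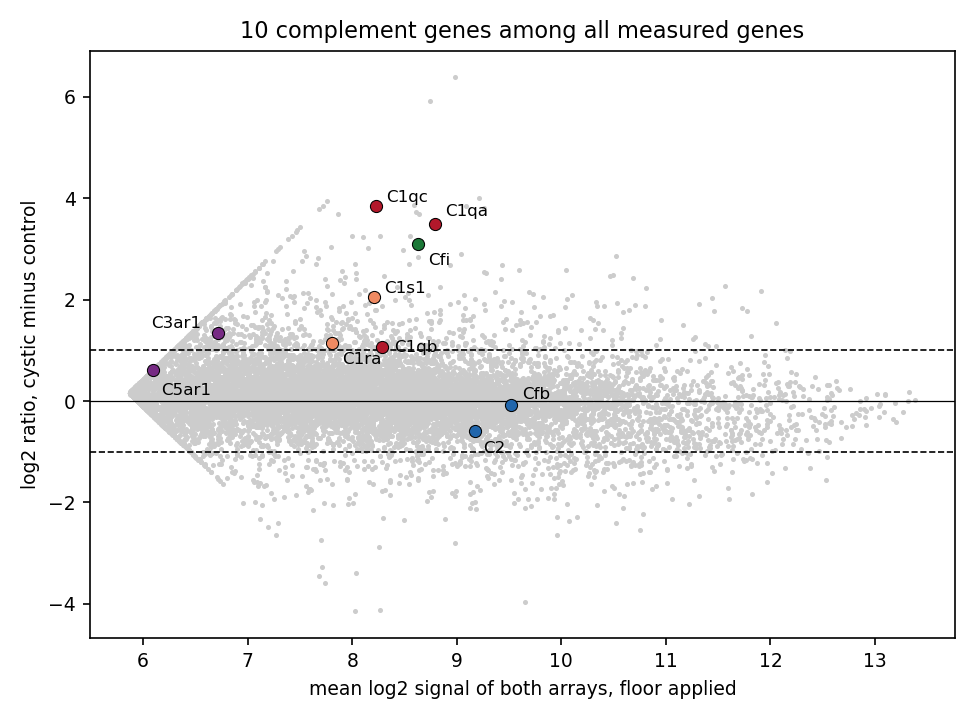
Log2 ratio, cystic minus control, against the mean log2 signal of both arrays with the floor applied, for all 12015 measured genes (grey) and the 10 complement genes (coloured), with 2-fold as broken lines. C1qc, C1qa and Cfi stand at 3.83, 3.48 and 3.10, and Cfb and C2 at -0.08 and -0.58.

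The anaphylatoxin receptors were dim. C3ar1, the receptor of C3a, went from 65.8 to 168 at its brightest probe set, 2.55-fold higher. Of the other two, one had 51.7 and 142, at least 2.56-fold higher, and one 4.4 and 111, at least 2.01-fold. All 3 were past 2-fold in the same direction, but the control signals were near or under the floor of 55.4. A floor raised to the 60th percentile put the C3ar1 log2 ratio at 0.93, and no floor with an added offset of 50 put it at 0.91, both under 2-fold. C5ar1, the receptor of C5a on neutrophils and macrophages, had 26.7 and 84.2 at one probe set and 15.9 and 77.3 at the other. Both control signals were under the floor, which makes C5ar1 at least 1.52-fold and at least 1.40-fold higher, bounds that do not show whether it passed 2-fold. A floor lowered to the 40th percentile gave 1.23 in log2. The flanking genes of C3ar1, Foxj2 and Necap1, had log2 ratios of 0.24 and 0.28.

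The C3ar1 window is shown because it was the only one of the 7 with a kappaB-type match, whose reverse complement stands 14 to 5 bases before the start. The first capitals mark a TATAAA 235 to 230 bases before it. The C5ar1 window held none of the 6 motifs.
C3ar1, GRCm38.p6 chr6:122856158-122856407, minus strand: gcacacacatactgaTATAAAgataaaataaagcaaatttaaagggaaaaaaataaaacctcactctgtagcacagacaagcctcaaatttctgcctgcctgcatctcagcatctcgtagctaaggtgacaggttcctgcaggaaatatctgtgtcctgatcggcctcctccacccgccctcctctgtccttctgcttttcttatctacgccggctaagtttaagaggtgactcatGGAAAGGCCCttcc

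Of 50 other complement genes, 37 had a probe set of their own and 18 were measured. Among these, 6 were at least 2-fold higher (33.3%), 1 was lower, and the median log2 ratio was 0.67. Over all measured genes 7.06% were at least 2-fold higher and 3.78% lower. Of the 18, 8 were bounds, measured through 1 array only. Colec12, Itgax and Itgb2 count as higher only through the cystic array, and C8g as lower only through the control array. Of the inhibitors, 3 of 7 measured rose: Clu (clusterin, which blocks the membrane attack complex), Serping1 (the C1 inhibitor, which binds C1r and C1s) and Cpn1 (the catalytic chain of carboxypeptidase N, which trims C3a and C5a). Clu went from 1815 to 8120 at its brightest probe set, and its 4 probe sets had log2 ratios from 1.91 to 2.68. Serping1 went from 1136 to 3456, 3.04-fold. Cpn1 went from 71.0 to 144 and was just past 2-fold. It had 0.86 after median centring or loess, 0.83 after quantile normalization and 0.71 with the floor at the 60th percentile. With no floor and an added offset of 50 it had 0.68.

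Of the membrane-bound inhibitors, Cr1l, the mouse regulator Crry, had 476 and 512 (log2 ratio 0.10), and Cd59a, which blocks assembly of the membrane attack complex, had 810 and 794 (-0.03). The sign of both turned under some settings, to -0.06 with median centring for Cr1l and to 0.01 with loess for Cd59a. Cd46 had 64.6 and 55.5, around the floor. Susd4, a membrane protein that inhibits complement, had log2 ratios of 0.97 and 1.09 at its pair of probe sets. Cd55, Cd55b, Cfhr2, C4bp, Vtn, Cpn2 and Csmd1 did not reach the floor on either array.

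Downstream and lectin pathway genes were mostly dim. C4b, the component cut by C1s, and its relative C4a share a single probe set, which went from 116 to 478, a log2 ratio of 2.04. It cannot tell the genes apart, so the rise cannot be assigned to C4b. C8g, a chain of the membrane attack complex, had 142 and 35.1, at least 2.29-fold lower, the only gene counted as lower. Hc (the mouse C5 gene), C6, C8a, C8b and C9 were under the floor on both arrays. Cfp, properdin, which stabilizes the alternative pathway convertase, was under the control floor at 4.2, and at least 1.81-fold higher. Masp1 and Fcna of the lectin pathway had 0.33 and 0.36, and 1 of the 4 measured Masp1 probe sets had a bound of 1.32. The scavenger collectin Colec12 was at least 2.31-fold higher (49.8 to 128). At a floor at the 60th percentile Colec12 had 0.54 and C8g -0.49, both under 2-fold. Colec12 was also under it with no floor and an added offset of 50 (0.83). Colec11 had 60.1 and 40.9, neither of which reaches the cystic floor, and no direction is given. Masp2, Mbl1, Mbl2, Fcnb and Colec10 did not reach the floor on either array.

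Among the receptors, the integrin chains of complement receptors 3 and 4 were bounds. Itgb2, their shared beta chain, was at least 2.72-fold higher (52.4 to 151), Itgax at least 2.12-fold (33.3 to 118) and Itgam at least 1.41-fold (17.5 to 78.0). Itgax was under 2-fold with median centring (0.92), quantile normalization (0.90), loess (0.99) and the floor at the 60th percentile (0.42), where Itgb2 had 0.78. Itgb2 was also under it with no floor and an added offset of 50 (0.97). Cd93, a surface glycoprotein once taken for a C1q receptor, had 586 and 1050 (0.84) at its brightest probe set. Its other measured probe sets were lower, at 0.74, 0.14 and a bound of 0.37. C1qbp, a mostly mitochondrial protein that binds C1q heads, had 3861 and 2709 (-0.51). Cr2 and Vsig4 were under the floor on both arrays.

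**Figure D3:**
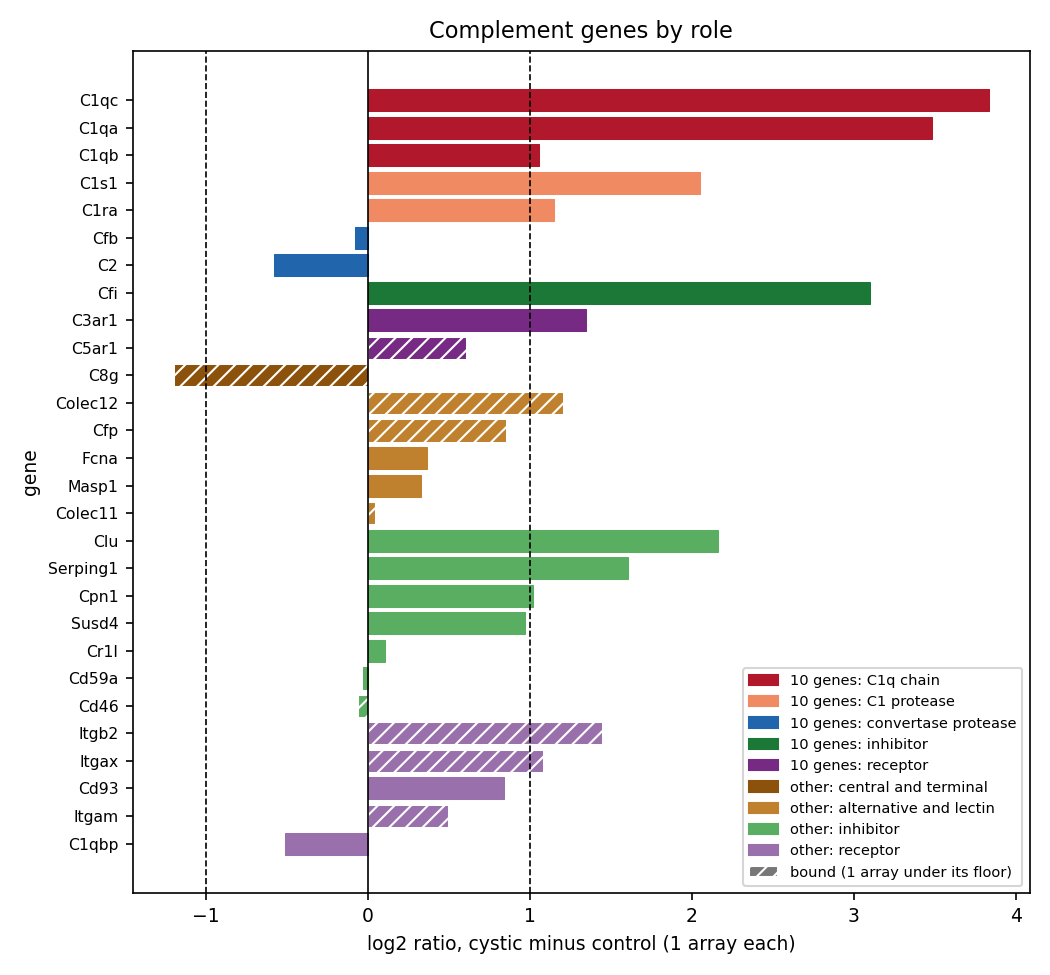
Log2 ratio, cystic minus control, of the 10 complement genes and the 18 other measured complement genes, grouped by role, 1 array each; hatched bars are bounds and broken lines mark 2-fold. C1qc, C1qa and Cfi extend past 3, Clu and C1s1 past 2, and C8g is the only bar beyond -1.

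Markers of macrophages were higher beside the C1q genes. Of 22 listed markers 21 had a probe set of their own and 19 were measured. Of the 19, 16 were at least 2-fold higher and none lower, beside 7.06% and 3.78% of all measured genes. Their log2 ratios ran from 0.42 to 4.00, with a median of 2.12. The summed signal of the 21 went from 2483 to 11307, and none was at 0. Adgre1 (F4/80) went from 68.6 to 307, Cd68 from 52.9 to 240, and Csf1r from 1198 to 2370. For 7 of the 19 the control signal was under the floor, so their ratios are lower bounds with no exact order. They count as measured only through the cystic array, and the list median, the value of Cd68, is among these bounds. Of the 12 markers that reached the floor on each array, C1qa and C1qc each had a higher log2 ratio than 11, Lyz2 (4.00) being above both, and Cfi was above 10. C1s1 was above 5, C3ar1 above 3, and C1ra and C1qb at its brightest probe set above 1. C2 and Cfb were below all 19, the bounds included. In whole kidney, a difference in the number of cells of a type and in RNA per cell cannot be told apart, and the part of macrophages in these results was not tested.

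Fibroblast markers moved in the same direction. All 8 were at least 2-fold higher, beside 7.06% of all measured genes. Their log2 ratios ran from 1.42 to 2.85, with a median of 1.70. The summed signal went from 5953 to 24036, and none was at 0. Endothelial markers had none of 5 past 2-fold and a median of 0.41, with sums of 1728 and 1854. Of the 10 kidney markers 3 fell and none rose, beside 3.78% and 7.06% of all measured genes. Their median was -0.52, with sums of 43610 and 32277. The part of any of these in the complement values was not tested.

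Markers of neutrophils, lymphocytes and mast cells gave little signal. Of 8 neutrophil markers 6 were under the floor on both arrays, S100a8 with 14.8 and 23.4 and S100a9 with 4.7 and 23.4. Ngp had 60.6 and 48.4, and Csf3r 62.3 and 79.1. The summed signal of the 8 went from 233 to 275. Of 8 lymphocyte markers 7 were under the floor on both, with sums over the 8 of 245 and 174, and so were all 4 mast cell markers. None of these markers was at 0. Of the hepatocyte markers, Alb had 65.8 and 91.7, Apoa1 2.8 and 7.3 and Ttr 5.4 and 5.6. Apob had 59.0 and 17.9, neither of which reaches the cystic floor, and no direction is given. Only Fgb, the fibrinogen beta chain, was past 2-fold (at least 5.70-fold, to 316). The summed signal of the 5 hepatocyte markers was 143 and 438, with none at 0.

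**Figure D4:**
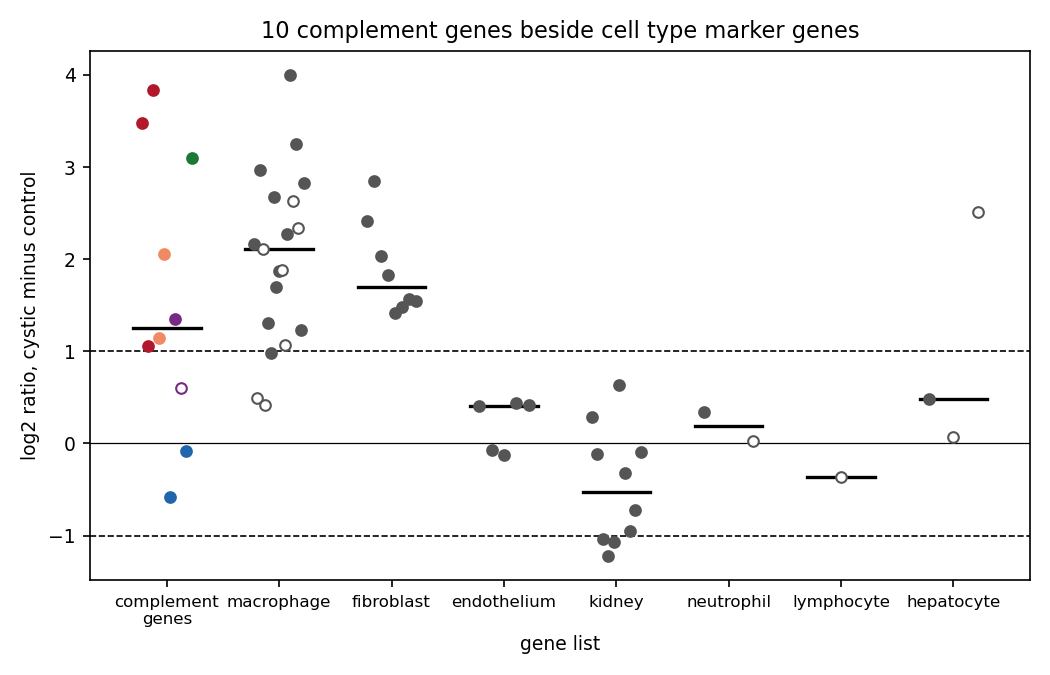
Log2 ratio, cystic minus control, of each measured gene in the complement list and in 7 cell type marker lists, with the list median as a bar, bounds as open points and 2-fold as broken lines; mast cell markers were not measured. C1qa, C1qc and Cfi stand at 3.48, 3.83 and 3.10. The macrophage list's median of 2.12 is the value of Cd68, itself a lower bound. C2 and Cfb lie below all the macrophage points.

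Under the other scalings, floors and probe set rules, C1qa, C1qc, Cfi and C1s1 were past 2-fold in every setting that gave a value. C1qa ranged from 3.07 to 3.48, C1qc from 3.19 to 3.83, Cfi from 2.71 to 3.10 and C1s1 from 1.74 to 2.05. C1qb was past 2-fold in 6 of 10 settings and reached 2.85 with its second brightest probe set. C1ra and C3ar1 were past it in 8 of 10 settings each, and C5ar1 in 2 of 9. C2 and Cfb were not past it in any, and stayed between -0.74 and -0.12 and between -0.24 and -0.05.

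**Figure D5:**
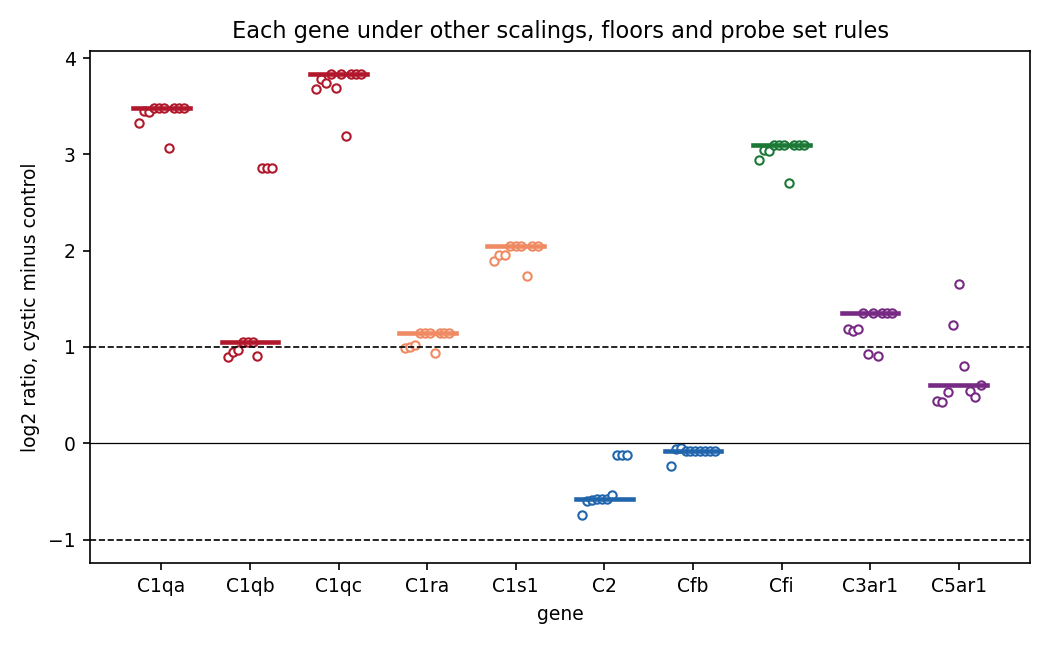
Log2 ratio, cystic minus control, of each of the 10 complement genes as reported (bar) and under each of the 9 or 10 other settings that gave a value (open points), with 2-fold as broken lines. C1qa, C1qc, Cfi and C1s1 stay above 1, C1qb splits between 0.90 and 2.85, and C2 and Cfb stay between the lines.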

How the data were processed

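Total RNA of kidney, labelled with biotin, was measured on 1 Affymetrix array per group, and the titles gave the groups. The authors deposited 1 intensity per probe set on a linear scale, the MAS5 signal, per the submitters' processing notes; its version, scaling target and detection calls are not given in the sources used here. Of 45101 probe sets 64 controls were left out. The deposited scaling was kept. Gene names came from GEO's annotation of the array, brought up to date by gene identifier with RefSeq (GRCm38.p6): 34945 named 1 gene, 932 several and 9160 none. A gene was read from its brightest probe set (mean log2 signal, floor applied) that names no other gene. Genes not matched are not analysed here. With 1 array a group, "higher", "lower", "rose" and "fell" in counts mean at least 2-fold, and no p-value is given. Promoter windows are RefSeq's, cut to the 250 bases before the start. The steps were tested on simulated arrays. The genes, lists and motifs were chosen with earlier results of these data known. All 10 genes are named with every probe set. The other complement genes with a probe set of their own are named too, mostly with their brightest probe set only. Up to 6 macrophage markers are named in listed order. Other genes, among them Spi1 and those flanking the 10 by position, were added after the data were opened. The alternatives were median centring, quantile normalization, loess, floors at the 40th and 60th percentile, no floor, an added offset of 50, other probe set rules and limits of 1.5-fold and 3-fold. Python 3.11.15, pandas 2.3.3, numpy 2.4.6 and statsmodels 0.14.6 were used.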

Additional observations from a re-analysis of the deposited data

How the results depend on the processing

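The 10 genes' count of 7 higher was 4 with a 3-fold limit (2.28% of all genes higher) and 4 with no floor and an offset of 50 (3.14%), and their median log2 ratio of 1.25 was 0.92 with that offset, 1.70 with the median over probe sets and 1.71 with the second brightest probe set. Of the other complement genes, 6 higher and 1 lower became 2 and 0 with the floor at the 60th percentile (6.06% and 3.84% of all genes), 10 and 5 of 37 with no floor (11.5% and 9.16%), 2 and 0 with a 3-fold limit, and 3 higher with the offset. Adding an offset shrinks the ratios of dim genes, and a higher floor shrinks those of genes with 1 signal under it: the 5 calls lost there were still measured, with smaller ratios. With both of these probe set rules C1qb moved from 1.06 to 2.85, from below to above the middle of the 10 ratios. Why its probe sets differ was not tested. The remaining alternatives kept these counts within 1.5 times and the median within the SD between probe sets, and the macrophage count stayed within 1.5 times in all of them. No ratio of a gene past 2-fold changed sign. C5ar1 could not be measured with the floor at the 60th percentile, nor C1s1 without shared probe sets. Dim genes near the floor, above all the receptors, are limited by signal over background. No paired analysis was possible because each group has 1 array.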

Other observations

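Other genes with a C1q-like domain, which are not part of the C1 complex, went both ways. Of 25 listed, 23 had a probe set of their own and 12 were measured, and 4 were at least 2-fold higher, 2 lower, with a median log2 ratio of 0.41. Over all measured genes 7.06% were at least 2-fold higher and 3.78% lower. Of the 12, 2 were bounds measured only through the cystic array, C1qtnf6 among them. Emilin1, a glycoprotein of elastic fibres, went from 108 to 464 (2.10), and Col8a1, a short-chain collagen, from 143 to 477 (1.74). C1qtnf6 was at least 2.97-fold higher (45.0 to 165) and C1qtnf1 had 1.13. C1qtnf12, an insulin-sensitizing adipokine, went from 1641 to 753 (-1.12), and C1qtnf3 from 334 to 92.9 (-1.85).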
